A study of Drosophila melanogaster with 13 samples.

Results

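The genes described here are named for the proteins of the cytosolic ribosome. They were taken as every gene of the dm6 annotation whose symbol begins with RpL (large subunit) or RpS (small subunit), which leaves out the mitochondrial mRpL and mRpS genes. This gave 92 of 18164 annotated genes, 14 of them X-linked and 78 autosomal. Genes with -like in the symbol were kept, and whether their products are part of the ribosome was not examined. The study mapped MSL1, MSL2 and MSL3 by ChIP-seq in whole adult males aged 2 to 3 days of 2 transgenic lines. Each protein had 2 replicate libraries in each line, and 1 library, labelled wt, was made with preimmune serum. Males of both lines carried y1w1118 and were homozygous for the mle9 mutation, so that MLE came from a FLAG-tagged transgene at 86Fb on chromosome 3, driven by an Ubi promoter. MLEWT-FLAG males carried Ubi:mleWT over the balancer TM6, and MLEΔCBD-FLAG males carried Ubi:mleΔCBD on both homologues. The product of Ubi:mleΔCBD lacks part of the region of MLE that the paper mapped as binding the zinc finger protein CLAMP. The lines therefore also differed in transgene dose and in the balancer, and the chromatin came from all tissues of the fly together. By immunoblot of adult flies, the paper reports similar MLE protein levels from heterozygous Ubi:mleWT and homozygous Ubi:mleΔCBD.

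Ribosomal proteins are made in balanced amounts and at very high rates in nearly every cell, and the loss of 1 copy of many of these genes gives the Minute phenotype of slow growth and short bristles in Drosophila. Many of these promoters start transcription within a run of pyrimidines, the TCT initiator, and snoRNA genes lie in the introns of many of them. The MSL complex raises transcription from the single X of males. MSL2 and MSL1 mark its entry sites on the X, while MSL3, a chromodomain protein, lies along the bodies of transcribed X genes where histone H3 carries methylation laid down during elongation.

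A member was counted as having a peak in a list when the gene or the 200 bp before its annotated start overlapped a peak by at least 1 bp. The interval beside a share is its 95% Wilson interval and reflects counting error only. Each share stands beside that of other genes of the same chromosome class and similar length (within 25% of each member's length), which numbered 300 to 487 per member on the X and 405 to 2811 on the autosomes, and beside that of all genes of the class. The MLEWT-FLAG lists held 293 (MSL1), 222 (MSL2) and 2915 (MSL3) peaks, and the MLEΔCBD-FLAG lists 577, 92 and 2301. All 6 lists had a peak at roX1 and at roX2, the genes of the RNAs of the complex. There is 1 list per protein and line, pooled over replicates, so differences between lines have no replicate error and were not tested. The lists do not say which of the peak sets compared for reproducibility a fold enrichment comes from, so every fold and rank given here carries that uncertainty. Expression was not measured in these files, so the genes compared were matched on length and not on expression.

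The sequences around the annotated starts show where these genes begin, and are given for members with an MSL1 peak. RpL22, RpS14a and RpS14b are X-linked, the next 5 are among the autosomal members with the highest MSL1 fold enrichment, and RpL32, a common reference gene for expression, had the weakest MSL1 peak. RpS14b had no MSL1 peak and is the tandem neighbour of RpS14a. Each runs from 40 bases before the start to 20 bases from the start on, in the direction of the gene, read from the RefSeq Release 6 assembly, with each CTTT in capitals.
RpL22, chrX:765111-765170, minus strand: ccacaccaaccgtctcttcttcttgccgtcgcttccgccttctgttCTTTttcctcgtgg
RpS14a, chrX:7933702-7933761, plus strand: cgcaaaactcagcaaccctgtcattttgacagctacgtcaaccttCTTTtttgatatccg
RpS14b, chrX:7934858-7934917, plus strand: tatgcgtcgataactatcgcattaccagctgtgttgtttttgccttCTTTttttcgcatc
RpL3, chr3R:11221854-11221913, plus strand: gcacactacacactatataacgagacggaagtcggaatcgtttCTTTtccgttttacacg
RpL30, chr2L:19009287-19009346, minus strand: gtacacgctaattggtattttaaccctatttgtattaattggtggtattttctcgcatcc
RpL7, chr2L:10200964-10201023, plus strand: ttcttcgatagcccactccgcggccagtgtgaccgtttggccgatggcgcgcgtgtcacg
RpL23A, chr3L:1668635-1668694, minus strand: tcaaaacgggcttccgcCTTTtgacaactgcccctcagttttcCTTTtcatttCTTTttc
RpS4, chr3L:13041716-13041775, plus strand: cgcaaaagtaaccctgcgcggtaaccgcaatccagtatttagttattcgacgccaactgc
RpL32, chr3R:30046142-30046201, minus strand: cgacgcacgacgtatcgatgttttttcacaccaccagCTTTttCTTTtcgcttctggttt

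Runs of pyrimidines with CTTT lie just after the annotated start in RpL22, RpS14a, RpS14b, RpL3 and RpL23A and around it in RpL32. RpL7, RpS4 and RpL30 have no CTTT in the printed window. A CTTT whose C lay within 5 bp of the annotated start, read on the gene's strand, occurred in 31 of 92 members (33.7%) and in 6.25% of all genes. CTTTT within the first 20 bases, a window chosen after the sequences were read, occurred in 32 of 92 members (34.8%) and in 3.22% of all genes. The annotated start is the outermost start of any transcript, so an initiator can lie further inside the gene than either window reaches.

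The bases under the MSL1 summits of MLEΔCBD-FLAG males are given for RpL3, RpL30 and RpL23A, the 3 with the highest fold enrichment among the autosomal members printed above whose summit lay at least 40 bases before the start. Each sequence spans 50 bases either side of the summit in the direction of the gene, with the 21 bases at the summit in capitals.
RpL3, chr3R:11221722-11221822, plus strand: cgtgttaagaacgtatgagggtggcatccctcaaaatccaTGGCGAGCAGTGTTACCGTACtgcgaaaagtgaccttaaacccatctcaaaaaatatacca
RpL30, chr2L:19009305-19009405, minus strand: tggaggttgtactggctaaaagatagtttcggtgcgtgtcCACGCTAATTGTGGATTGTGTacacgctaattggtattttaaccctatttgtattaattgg
RpL23A, chr3L:1668702-1668802, minus strand: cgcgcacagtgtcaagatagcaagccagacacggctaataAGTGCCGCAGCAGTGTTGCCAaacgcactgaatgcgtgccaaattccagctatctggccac

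On the X chromosome all 14 ribosomal protein genes had an MSL3 peak in MLEWT-FLAG males, or 100% (interval 78.5 to 100). Similar-length X genes had one in 49.6% of cases and all X genes in 50.5%. In MLEΔCBD-FLAG males 8 of the 14 had an MSL3 peak, or 57.1% (32.6 to 78.6), beside 20.1% of similar-length genes and 23.5% of all X genes. The other 6 members, RpS10b, RpS28b, RpL35, RpS19a, RpL36 and RpS14b, had an MSL3 peak in the MLEWT-FLAG list alone. Among X genes with an MSL3 peak in MLEWT-FLAG males, 45.7% also had one in MLEΔCBD-FLAG males, a share that lies inside the interval of the members. With 14 members a difference in how often MSL3 was present in both lines was not detectable, while the MSL3 shares of both lines lay above those of similar-length genes by more than the interval.

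**Figure D1:**
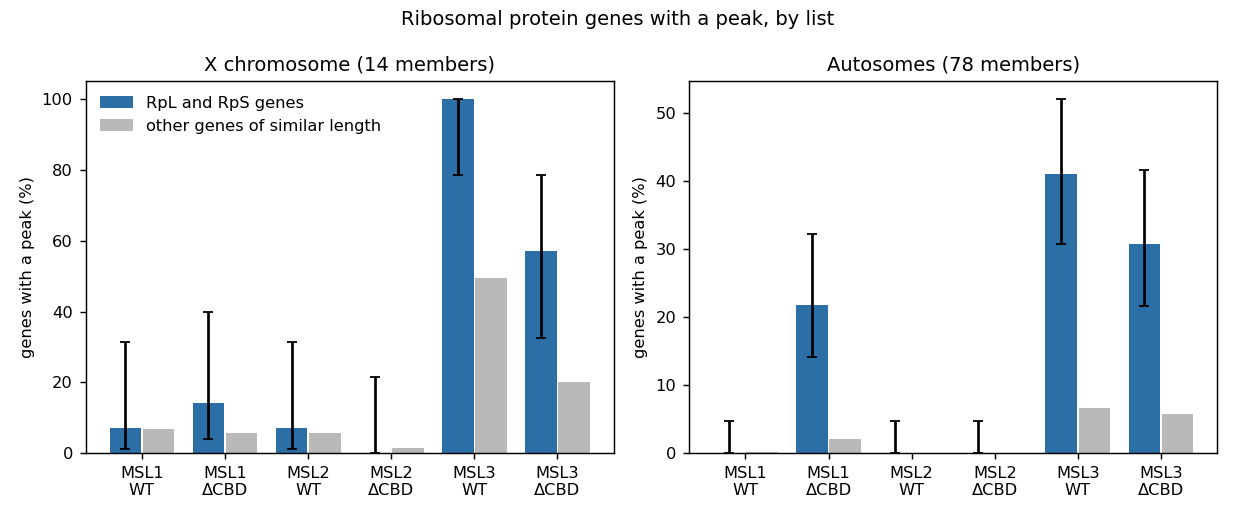
Share of ribosomal protein genes with a peak in each of the 6 lists (blue bars, with 95% Wilson intervals as error bars) beside the mean share of other genes of similar length (grey), in percent, for the X chromosome (14 members) and the autosomes (78 members), on separate scales. The MSL3 shares stand above the grey bars on both, and the autosomal MSL1 share is 0 in MLEWT-FLAG (WT) and 21.8% in MLEΔCBD-FLAG (ΔCBD) males.

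MSL3 lay over most of these X genes in MLEWT-FLAG males. Its peaks covered between 32.6% (RpS14b) and 100% (RpL22) of the gene with the 200 bp before it, with 93.4% at RpS19a, 91.7% at RpS28b and 90.7% at RpS6. In MLEΔCBD-FLAG males the cover was lower at every member but RpL22, which was again at 100%. It was 41.1% at RpL7A, 39.5% at RpS6, 29.4% at RpS5a, 22.2% at RpS14a, 21.4% at RpL37-1, 14.5% at RpS15Aa and 9.79% at RpL17, and the remaining 6 were not covered. X-linked MSL3 peaks of all genes also differed in width between the lists, with medians of 2287 bp in MLEWT-FLAG and 1200 bp in MLEΔCBD-FLAG males, beside 1801 and 422.5 bp for the peaks at members.

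RpL22, whose product is an RNA-binding protein of the large subunit, was the X member with the strongest MSL3 peak and the only one with MSL2. It lay under 1 MSL3 peak of 6142 bp in MLEWT-FLAG males and under 1 of 3684 bp in MLEΔCBD-FLAG males. Its fold enrichments, each over the background of its own list, were 15.0 (rank 122 of the 1030 X-linked MSL3 peaks) and 9.12 (rank 33 of 687). Its MSL1 peak had a fold enrichment of 2.99 in MLEWT-FLAG males, with the summit 2272 bp past the start, inside the overlapping gene lncRNA:CR42491. In MLEΔCBD-FLAG males it had a pair of MSL1 peaks, one of 3.20 with the summit beyond the gene's 3′ end and one of 2.98 whose summit lay 70 bp before the start. The MSL2 peak of MLEWT-FLAG males was weak, 2.12 (rank 208 of 222), had its summit past the 3′ end in lncRNA:CR44965, and was absent from the MLEΔCBD-FLAG list.

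RpS6, the small subunit protein phosphorylated by S6 kinase, had the next strongest X-linked MSL3 peak among the members in MLEWT-FLAG males. Its fold enrichment there was 14.3. Its rank was in the top 12.7% of X-linked MSL3 peaks of that list and the top 31.9% of those in the MLEΔCBD-FLAG list. The summit lay near the 3′ end in both, 1446 and 1380 bp past the start, inside the overlapping gene CR33222. Over all 650 X genes with MSL3 in both lines the medians of the strongest peak were 14.5% and 33.1%, counted from the strongest X-linked peak down. RpS5a stood at 38% and 73.8%, and RpS14a at 67.3% and 11.1%, with its summit 252 and 266 bp before the start, toward the neighbouring gene Dhdds. Such places, a ranking within chromosome class that was chosen after seeing the data, order the peaks within each list and do not measure a change in binding. The place was nearer the top in the MLEΔCBD-FLAG list at 6 of the 8 members with MSL3 in both lines, all but RpS6 and RpS5a, beside 15.8% of the 650 X genes. With all chromosomes ranked together it was nearer the top at 4 of the 8 members, a share not counted over the 650 X genes.

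The strongest MSL3 summit of X members lay at the start more often in the MLEΔCBD-FLAG list. For the 8 members with MSL3 in both lines, the summit of the strongest peak lay within 200 bp of the annotated start at 1 member in MLEWT-FLAG males (RpL37-1) and at 5 in MLEΔCBD-FLAG males. Start summits were also a larger share of the MSL3 gene and peak pairs of all X genes in MLEΔCBD-FLAG males, 12% beside 5.15% in MLEWT-FLAG males. On that measure, which counts every peak and not only the strongest, the members had 6 of 12 pairs (50%) in MLEΔCBD-FLAG and 4 of 19 (21.1%) in MLEWT-FLAG males. The strongest peak alone was not counted over all X genes. At RpL7A, which encodes a large subunit protein, the strongest summit was 1351 bp past the start in MLEWT-FLAG males and 105 bp before it in MLEΔCBD-FLAG males. At RpL17 the positions were 2242 bp past and 104 bp before the start, at RpS15Aa 1304 bp past and 32 bp before, and at RpL22 623 bp past and 85 bp before. The start peak of RpL17 in MLEΔCBD-FLAG males overlapped no MSL3 peak of MLEWT-FLAG males, and at RpS5a, RpS14a and RpL37-1 the strongest summit lay at nearly the same place in both. RpL7A, RpS15Aa and RpS5a also had a separate, weaker MSL3 peak at the start in MLEWT-FLAG males, with folds of 2.78, 2.60 and 2.49. The start peak was thus present in both lists at these 3 genes, and it was the strongest one of MLEΔCBD-FLAG males at RpL7A and RpS15Aa.

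**Figure D2:**
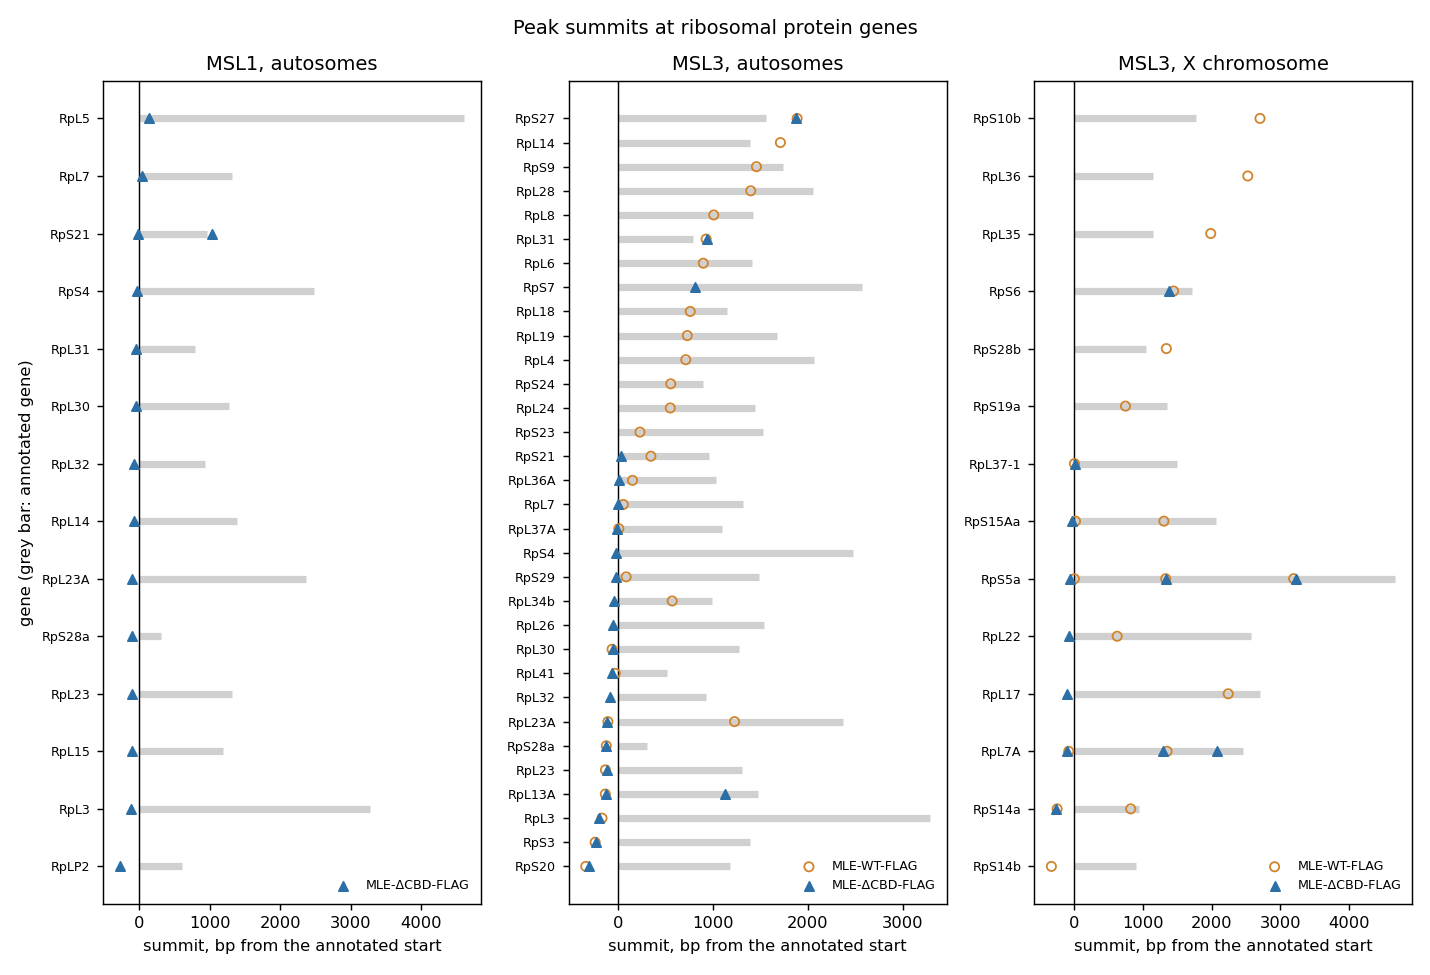
Summits of MSL1 peaks on the autosomes and MSL3 peaks on the autosomes and the X, in bp from the annotated start of each named ribosomal protein gene (grey bars show the gene, open circles MLEWT-FLAG and filled triangles MLEΔCBD-FLAG males). Summits of MLEΔCBD-FLAG males gather at the start (over all members, 14 of 18 autosomal MSL1 summits and 15 of 25 autosomal MSL3 summits lie within 200 bp of it, beside 59.9% and 31.7% of the pairs of all autosomal genes), and several MLEWT-FLAG summits in gene bodies have no triangle beside them.

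MSL1 and MSL2 were scarce at the X members, and the interval of each share took in the share of similar-length genes. MSL1 was found at 1 of 14 in MLEWT-FLAG males (RpL22, 7.14%, interval 1.27 to 31.5), beside 6.97% of similar-length and 9.6% of all X genes, and at 2 of 14 in MLEΔCBD-FLAG males (RpL22 and RpS14a, 14.3%, 4.01 to 39.9), beside 5.86% and 8.35%. MSL2 was found at 1 of 14 in MLEWT-FLAG males, beside 5.71% of similar-length and 8.75% of all X genes, and at 0 of 14 in MLEΔCBD-FLAG males, beside 1.44% and 2.2%. The nearest MSL2 peak of MLEWT-FLAG males lay a median of 9332.5 bp from the members, a distance not measured for other X genes. It lay as far as 67247 bp from RpL17, which had MSL3 in both lines. The RpS14a peak of MSL1 in MLEΔCBD-FLAG males (3.09, rank 324 of 577) had its summit 309 bp before the gene, and the peak came within 200 bp of the start of Dhdds.

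On the autosomes MSL1 was at none of the 78 ribosomal protein genes in MLEWT-FLAG males (interval 0 to 4.69%), where 0.313% of all autosomal genes and 0.137% of similar-length genes had it. In MLEΔCBD-FLAG males it was at 17 of 78, or 21.8% (14.1 to 32.2), beside 2.09% of similar-length genes and 3.43% of all autosomal genes. Among autosomal genes without MSL1 in MLEWT-FLAG males, 3.14% had it in MLEΔCBD-FLAG males. The 17 members made up 12 of 48 genes of the large subunit and 5 of 30 of the small subunit. They lay on each large autosomal arm, with 4 of 19 members on 2L, 5 of 21 on 2R, 5 of 14 on 3L and 3 of 23 on 3R. MSL2 was at no autosomal member in either line, where 0.0261% of all autosomal genes had it in MLEWT-FLAG and 0.0912% in MLEΔCBD-FLAG males.

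The strongest of these MSL1 peaks was at RpL3, whose product lies near the peptidyl transferase centre, with a fold enrichment of 5.51 (rank 110 of 577). RpL23 followed with 4.24 (rank 185), RpL30 with 3.98 (rank 207), RpL7 with 3.48 (rank 262), RpL23A with 3.46 (rank 264) and RpS4 with 3.33 (rank 286). The other 11, among them RpS21, RpL5, RpLP2, RpL15, RpS28a, RpL14, RpL31 and RpL32, had folds of 2.27 to 2.96 for their strongest peak and ranks of 358 to 556. Their 18 peaks had a median fold of 2.62, below the median of 3.04 over all 377 autosomal MSL1 peaks of that list. When as many MLEΔCBD-FLAG peaks were kept as the MLEWT-FLAG list holds, by fold enrichment, 6 of the 17 remained, and 6 members had an MSL1 peak at a global IDR of 0.001 or less. At that IDR the members' share was still 6.64 percentage points above that of similar-length genes, against 19.7 points over the whole list.

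These MSL1 peaks lay at promoters. Of 18, 14 had their summit within 200 bp of the annotated start and none lay further inside the gene, beside 59.9% and 15.5% of the gene and peak pairs of all autosomal genes in that list. The 14 summits ran from 122 bp before the start (RpL3) to 141 bp past it (RpL5), with a median of 58.5 bp before it, and 12 of them lay upstream. The other 4 lay outside the gene, among them those of RpS21 (1032 bp past the start, beyond the 3′ end, where CG2991 begins) and RpLP2 (271 bp before the start).

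Several of these promoters are shared with a neighbour, which bears on whose peak it is. At 9 of the 17 members every MSL1 peak came within 200 bp of the start of another annotated gene, among them a protein-coding one at RpS21 (CG3104), RpL7 (Ripalpha), RpL14 (Nelf-E), RpL3 (CG6693), RpS28a (Axn) and RpL32 (CG7943), and a snoRNA at RpL15. The other 8, among them RpL30, RpL23, RpL23A, RpS4, RpL5, RpL31 and RpLP2, had an MSL1 peak near no other start. RpL30, RpL23, RpL23A and RpS4 are thus among both the strongest and the least ambiguous. In those 4 the summits lay 49, 100, 98 and 35 bp before the start. How often the MSL1 peaks of all autosomal genes came near the start of another gene was not counted.

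**Figure D3:**
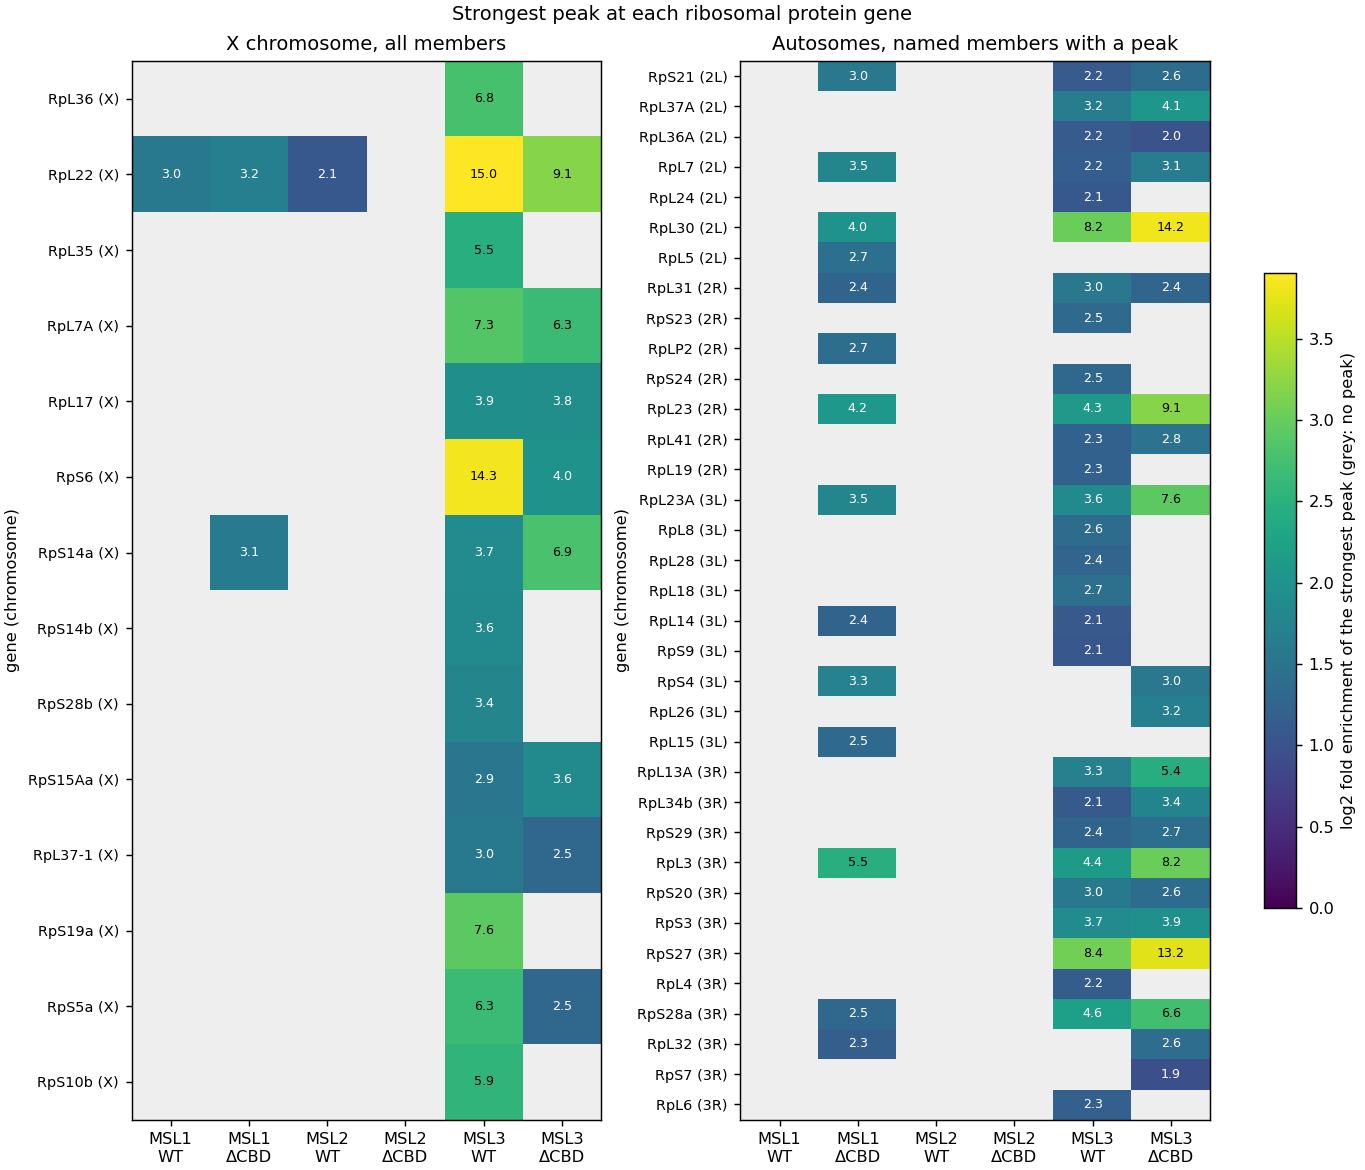
Fold enrichment of the strongest peak at each ribosomal protein gene in each list, for all 14 X members and the named autosomal members with a peak (the number is the fold, the colour its log2, grey no peak, to be read within a column). MSL1 fills autosomal cells in the ΔCBD column and none in the WT column, and MSL3 fills cells in both.

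MSL3 was more frequent at the autosomal members than MSL1 in both lines. It was at 32 of 78 in MLEWT-FLAG males, or 41% (30.8 to 52.1), beside 6.63% of similar-length genes and 12.7% of all autosomal genes. In MLEΔCBD-FLAG males it was at 24 of 78, or 30.8% (21.6 to 41.7), beside 5.73% and 10.4%. The share of members ran above both comparisons in both lists. It was present in both lines at 20 members, in MLEWT-FLAG males alone at 12 and in MLEΔCBD-FLAG males alone at 4 (RpS4, RpL26, RpL32 and RpS7). Of autosomal genes with MSL3 in MLEWT-FLAG males, 61.8% had it in MLEΔCBD-FLAG males, beside 20 of 32 members (62.5%), and of those without it 2.99% had one there, beside 4 of 46 members (8.7%).

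Whether an MSL3 peak of MLEWT-FLAG males had a counterpart in MLEΔCBD-FLAG males differed with where it lay in the gene. In MLEWT-FLAG males 11 of the 33 autosomal member peaks had the summit within 200 bp of the start, and all 11 were overlapped by an MSL3 peak of MLEΔCBD-FLAG males, beside 71.2% of such gene and peak pairs over all autosomal genes. A further 15 had the summit deeper in the gene body, and 2 of these (RpS21 and RpL34b) were overlapped, beside 44.5% over all autosomal genes. On the X, 4 of 4 start peaks and 6 of 9 body peaks of members were overlapped, beside 57.9% and 37.4% over all X genes. Of peaks whose summit lay outside the gene and its start, 6 of 7 at autosomal members were overlapped, beside 77.3% over all autosomal genes, and 2 of 6 at X members, beside 67.3% over all X genes. The autosomal body peaks without a counterpart included those of RpL24, RpS23, RpS24, RpL19, RpL23A, RpL8, RpL28, RpL18, RpS9, RpL4 and RpL6. These peaks were also weaker, with folds of 1.97 to 2.73 for the 15 body peaks and 2.18 to 8.18 for the 11 at starts, and the part of peak strength in this difference was not tested.

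RpL30 had one of the strongest autosomal MSL3 peaks among the members, and it sat at the same place as MSL1. Its place was in the top 3.73% of the 1879 autosomal MSL3 peaks of MLEWT-FLAG males (fold enrichment 8.18) and the top 3.25% of the 1570 of MLEΔCBD-FLAG males (14.2 over the background of that list), with summits 59 and 54 bp before the start and the MSL1 summit of MLEΔCBD-FLAG males 49 bp before it, inside the sequence given above. At RpL23 the MSL3 places were 18.4% and 6.82%, with summits 129 and 112 bp before the start. At RpL23A they were 24.5% and 9.75%, with summits 103 and 117 bp before it, while a body peak 1229 bp past the start (2.17) was in the MLEWT-FLAG list only. They were 17.4% and 8.6% at RpL3, and 15% and 12.4% at RpS28a.

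RpS27 had the strongest MSL3 peak of the autosomal members in MLEWT-FLAG males, but its summit lay beyond the gene, 1887 bp past the start in MLEWT-FLAG and 1879 bp past it in MLEΔCBD-FLAG males, at places of 3.41% and 3.95%. RpS20 and RpS3 likewise had MSL3 summits outside the gene in both lists, 224 to 336 bp before their start. The place was nearer the top in the MLEΔCBD-FLAG list at 15 of the 20 members with MSL3 in both lines, with medians of 31.8% in MLEWT-FLAG and 27.2% in MLEΔCBD-FLAG males, and the exceptions were RpL31, RpL36A, RpS20, RpS3 and RpS27. Over all 1200 autosomal genes with MSL3 in both lines it was nearer the top at 41.2%, with medians of 26.9% and 33.6%. With all chromosomes ranked together the numbers were 17 of 20 members and 57.9% of the 1200 genes, so the count depended on how peaks were ranked.

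MSL1 and MSL3 met at the same autosomal ribosomal protein genes of MLEΔCBD-FLAG males. MSL1 was at 13 of the 24 members with MSL3, or 54.2% (35.1 to 72.1), beside 21.8% of all autosomal genes with MSL3 there. It was at 4 of the 54 members without MSL3, or 7.41% (2.92 to 17.6), beside 1.29% of all autosomal genes without it. The 4 were RpL5, a partner of the small rRNA of the large subunit, RpLP2, a protein of the stalk that receives translation factors, RpL15 and RpL14, and of these RpL14 had MSL3 in MLEWT-FLAG males. In that line 12 of the 17 had an MSL3 peak. The matching share over all autosomal genes with MSL1 in MLEΔCBD-FLAG males was not counted.

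No peak of any list was found at 39 of the 78 autosomal members, so 39 (50%) had at least 1, beside 16.2% of all autosomal genes. Those without were RpLP0, RpLP1, RpL9, RpL10, RpL10Aa, RpL10Ab, RpL11, RpL12, RpL13, RpL21, RpL27, RpL27A, RpL29, RpL34a, RpL35A, RpL37-2, RpL38, RpL39, RpL40, RpL7-like, RpL22-like, RpL24-like and RpLP0-like of the large subunit, and RpS2, RpS3A, RpS5b, RpS10a, RpS12, RpS13, RpS15, RpS15Ab, RpS16, RpS18, RpS19b, RpS25, RpS26, RpS27A, RpS28-like and RpS30 of the small. RpL40 and RpS27A, which encode fusions with ubiquitin, and RpS3A, the single member on chromosome 4, are among them. The stalk genes were split, with a peak at RpLP2 and none at RpLP0 and RpLP1.

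Some members were paired by symbol with a second gene, called a copy here, and whether each is a true duplicate was not examined. Of 13 such pairs, 7 have 1 copy on the X and 1 on an autosome: RpS5a, RpS10b, RpS15Aa, RpS19a, RpS28b, RpL22 and RpL37-1 are the X copies. All 7 X copies had MSL3 in MLEWT-FLAG males, as did the other X members. Of the 7 autosomal copies RpS28a alone had a peak of any kind, near the start of Axn, beside 16.2% of all autosomal genes and 50% of all autosomal members. RpL22-like, RpS5b, RpS10a and RpS19b, among those without, are copies known for use in the germ line of flies, and whole males hold both germ line and soma. Of 5 pairs with both copies on autosomes, 3 had a peak at 1 copy only (RpL24, RpL7 and RpL34b, not RpL24-like, RpL7-like and RpL34a). Neither copy had one for RpL10Aa with RpL10Ab and RpLP0 with RpLP0-like. RpS14a and RpS14b, in tandem on the X, share 1 MSL3 peak of MLEWT-FLAG males that lies across the 3′ part of RpS14a and the space before RpS14b (3.63, rank 1164). Where copies are nearly alike, reads may have been divided between them or lost, and their values are uncertain.

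Other genes of translation were counted in the same way, none of them a member. Their shares were not matched on length to those of the members. On the autosomes, MSL1 in MLEΔCBD-FLAG males was at 5 of 37 initiation factor genes (eIF, 13.5%), 6 of 62 mitochondrial ribosomal protein genes (9.68%) and 0 of 8 elongation factor genes (eEF), beside 17 of 78 members. In MLEWT-FLAG males it was at 1 of the 62 mitochondrial genes and at 0 of the 37 and 8. MSL3 was at 18 of 37 eIF genes (48.6%) and 4 of 8 eEF genes in MLEWT-FLAG males, beside 32 of 78 members, and at 7 of 62 mitochondrial ribosomal protein genes (11.3%). In MLEΔCBD-FLAG males the numbers were 13 of 37, 3 of 8 and 8 of 62, beside 24 of 78. On the X all 11 mitochondrial ribosomal protein genes and 6 of 7 eIF genes had MSL3 in MLEWT-FLAG males, and 7 of 11 and 2 of 7 in MLEΔCBD-FLAG males. sta, the X-linked gene of the small subunit protein SA, had a peak in all 6 lists, and Rack1, which encodes a scaffold protein on the small subunit, had MSL3 in MLEWT-FLAG males only.

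**Figure D4:**
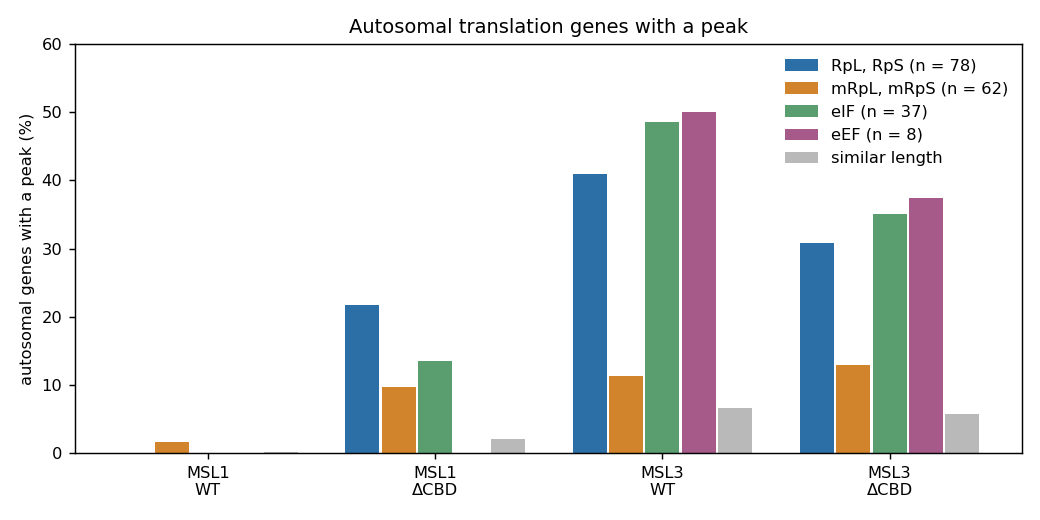
Share of autosomal genes with a peak, in percent, for cytosolic ribosomal protein genes (RpL, RpS), mitochondrial ribosomal protein genes (mRpL, mRpS), initiation (eIF) and elongation (eEF) factor genes, and genes of similar length to the RpL and RpS genes, in 4 lists. For MSL1 in ΔCBD males the cytosolic set has the highest bar, at 21.8%, while for MSL3 the eIF and eEF bars are higher. The sets were not matched to one another on length, and no intervals are shown.

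Sequence motifs of promoters, from 250 bases before the start to 50 from it on, were counted in members and in all genes. TATCGATA, the site of the factor DREF, was found in 6 of 14 X members (42.9%) and 22 of 78 autosomal members (28.2%), beside 11.1% of all X and 6.87% of all autosomal promoters. GGTCACACT, the core of the element called Motif 1, was in 0 of 14 and 9 of 78 (11.5%), beside 5.58% and 4.64%. GAGAGAGA, a run of 4 GA units of the kind found at entry sites of the complex, was in none of the 92 members, beside 2.82% of all promoters. All 3 were sought on both strands, and none contains another. Of the 17 autosomal members with MSL1 in MLEΔCBD-FLAG males, 1 had TATCGATA, beside 21 of the 61 others, and 10 had CTTTT in the first 20 bases, beside 14 of the 61. Over all autosomal genes TATCGATA was in 11.2% of those with MSL1 there and 6.87% of all, so the lower share at members with MSL1 was not seen over all genes, and CTTTT was in 4.93% and 3.18%. CTTT with its C within 5 bp of the start was in 5 of the 17 and 22 of the 61, so the pyrimidine count depended on the window. The CTTTT window was chosen after the start sequences were read, and the autosomal ones printed are all of members with MSL1. The CTTTT counts at members with and without MSL1 are not independent of that choice, and no conclusion is drawn from them. Within 100 bp of the summit, GGTCACACT was under 3 of the 18 MSL1 peaks and GAGAGAGA under 0, beside 19.4% and 0.531% of all 377 autosomal MSL1 peaks of that list.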

How the data were processed

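ChIP-seq libraries of MSL1, MSL2 and MSL3 from adult males were trimmed by the authors with cutadapt, mapped with Bowtie2 to dm6 and used for peak calling with MACS2, followed by the IDR procedure for reproducibility. The authors deposited 1 pooled list per protein and line. The deposited lists give a score, a fold enrichment (a ratio over background), and −log10 values of p, q and the local and global IDR for each peak. They hold no read counts, so depth is unknown. The peak set behind each fold enrichment is not named, and folds are over the background of their own list, so peaks were ordered within a list and a chromosome class. Peak positions are those of the first peak set that IDR compared. The preimmune library, labelled wt, was not analysed here, and none is listed for MLEΔCBD-FLAG males. No column of values was left unmapped.

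Genes came from Ensembl release 115 (BDGP6.54), without transposable elements, on X, 2L, 2R, 3L, 3R and 4. Peaks were matched to genes in Python 3.11.15 with pandas 2.3.3 and numpy 2.4.6, and the matching was tested on simulated peaks. Positions are counted from 1. No test was run. Named were all X members, all autosomal members with MSL1 or MSL2, those strongest for MSL3, those without a peak and the paired copies. Some members are counted but not reported by name here, and the plots of single genes leave them out. Members, lists and windows were chosen with earlier results of these data known. Alternatives covered the region, the overlap, the summit, the threshold, equal list lengths and the choice of genes compared.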

Additional observations from a re-analysis of the deposited data

How the results depend on the processing

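No paired analysis was possible because each protein and line has 1 list pooled over its replicates, and leaving out a replicate could not be done for the same reason. Of 132 counts of members under other settings, 106 stayed within 1.5 times the count given. The 106 include results that were 0 under every setting, which a setting that only leaves out peaks could not change. These were autosomal MSL1 in MLEWT-FLAG males, autosomal MSL2 in both lines and X-linked MSL2 in MLEΔCBD-FLAG males. Leaving out the -like symbols could change no count on the X, where no member has one. Of 96 differences from similar-length genes, 92 moved by less than the distance from the middle to the end of the member share's interval. Among those whose interval left out the other genes' share, 0 changed sign. A −log10 q of 3 or more left every count and difference as it was, and a global IDR of 0.01 every count (the differences were not computed at it). Taking 1000 bp before the start raised the X members with MSL1 and with MSL2 in MLEWT-FLAG males from 1 to 3 each. With 200 bp either side of the start alone these fell to 0 each, and autosomal MSL3 in MLEWT-FLAG males to 20 genes and to a difference of 21.7 points. Requiring the summit inside the region gave 9 X members with MSL3 (37.3 points above similar-length genes) and 0 with MSL2 in MLEWT-FLAG males, and 1 with MSL1 in MLEΔCBD-FLAG males. An overlap of 50% gave 1 X member for MSL1 in MLEΔCBD-FLAG and 0 for MSL2 in MLEWT-FLAG males. With equal list lengths, X members with MSL1 in MLEΔCBD-FLAG and with MSL2 in MLEWT-FLAG males fell to 0, autosomal MSL1 in MLEΔCBD-FLAG males to 6 and autosomal MSL3 in MLEWT-FLAG males to 19. Both further settings were chosen after seeing the data. A global IDR of 0.001 gave 0 X members for MSL1 and for MSL2 in MLEWT-FLAG males, 1 for MSL1 in MLEΔCBD-FLAG males, 6 autosomal members for MSL1 in MLEΔCBD-FLAG males (6.64 points) and 17 for MSL3 in MLEWT-FLAG males (17.3 points). Leaving out peaks within 200 bp of the start of a gene that is no member gave, on the X, 0 for MSL1 in both lines, 8 and 5 for MSL3 in MLEWT-FLAG and MLEΔCBD-FLAG males, and on the autosomes 8 for MSL1 and 8 for MSL3 in MLEΔCBD-FLAG and 15 for MSL3 in MLEWT-FLAG males. These last 3 settings leave out peaks, and the cause of the changes under any setting was not tested.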
